A study of Mus musculus with 2 samples.

Results

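The Reelin pathway and the transcription factors of the earliest neurons were represented by 10 genes, measured in forebrain tissue of mouse embryos at embryonic day 10.5. The genes were chosen by symbol, with earlier results of these data known, and were read from 43346 annotated gene rows in all. They fall into 3 groups by role. The Cajal-Retzius genes are Reln, Trp73 and Calb2, the early neuronal factors are Ebf1, Ebf2, Ebf3, Nhlh1 and Nhlh2, and the genes of cells that receive the Reelin signal are Vldlr and Dab1. All 10 were found once in each table.

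The study sequenced total RNA from 2 separate pools of forebrains as 2 libraries of a single group. Replicate 1 was made from 69 embryos and replicate 2 from 51 embryos, in each case of strain B6NCrl, healthy, of both sexes, with no treatment and no genetic change in the labels. Each library began with 10 ng of RNA longer than 200 nucleotides. The labels name the same donor entry for both pools, so the spread between them is that of separate pools of 1 strain, and the design holds no contrast between conditions.

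Cajal-Retzius cells are among the first neurons of the cerebral cortex. They come from the borders of the pallium, such as the cortical hem, the septum and the ventral pallium, spread below the brain surface and secrete Reelin, a large extracellular glycoprotein. Reelin binds the lipoprotein receptors Vldlr and Lrp8 on other cells, where the adaptor Dab1 is then phosphorylated by Src family kinases, and this signal is known for guiding the layering of cortical neurons. Ebf and Nhlh factors are helix-loop-helix proteins found in many kinds of newly formed neurons. Trp73 encodes p73, a relative of p53 that is made in a full-length form, TAp73, and from an inner start as a shorter form without the N-terminal activating domain.

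The inner start of Trp73 and the starts of the Nhlh genes are shown because the results on these genes turn on their starts or on their shared family. Sequences are the upstream bases from RefSeq promoters on GRCm38.p6, read in the gene's direction, and 8 of the 10 genes matched that table in 12 windows of 250 bases. In the Trp73 sequence, the window chr4:154097174-154097423 on the minus strand, capitals mark a match to the p53 response element, 2 adjacent half-sites of 10 bases with at most 1 mismatch in each. In the Nhlh sequences capitals mark CANNTG, the E-box bound by many basic helix-loop-helix proteins, the class of the Nhlh factors. The Nhlh1 window is chr1:172057597-172057846 on the minus strand, and the Nhlh2 stretch is chr3:102009895-102010075 on the plus strand, ended before an annotated exon.
Trp73 inner start: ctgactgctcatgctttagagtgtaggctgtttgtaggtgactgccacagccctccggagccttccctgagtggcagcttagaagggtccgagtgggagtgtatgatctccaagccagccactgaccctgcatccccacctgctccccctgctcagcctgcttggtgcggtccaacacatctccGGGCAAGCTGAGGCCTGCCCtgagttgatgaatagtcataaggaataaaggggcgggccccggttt
Nhlh1: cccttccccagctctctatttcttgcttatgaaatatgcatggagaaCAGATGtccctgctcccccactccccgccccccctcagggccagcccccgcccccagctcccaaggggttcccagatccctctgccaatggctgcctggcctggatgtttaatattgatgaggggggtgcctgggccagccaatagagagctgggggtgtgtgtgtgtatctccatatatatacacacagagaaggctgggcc
Nhlh2: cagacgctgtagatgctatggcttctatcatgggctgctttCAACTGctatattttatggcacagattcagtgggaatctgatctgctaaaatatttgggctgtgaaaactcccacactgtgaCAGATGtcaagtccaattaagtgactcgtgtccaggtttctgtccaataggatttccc

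The Trp73 match starts 66 bases upstream of the start, and 0.384% of 32841 promoter windows of the same length held such a match. Nhlh1 and Nhlh2 share the E-box letters CAGATG, first base 203 bases upstream of the Nhlh1 start and 127 bases upstream of the Nhlh2 start. Nhlh2 also holds CAACTG, whose first base lies 209 bases upstream. CANNTG is common, present in 66.2% of the 32841 windows and in 9 of the 12 windows of these genes. CANNTG and its form CAGCTG, found in 13.0% of all windows and contained in CANNTG, read the same on both strands, so each search covers both. A match describes letters and is not a bound site.

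Of the 10 genes, 9 were detected, meaning at 1 TPM or more in both libraries, where 32.4% of all annotated genes were. TPM is a share of all transcripts after adjusting for transcript length, so it allows levels to be compared between genes. The order of the mean levels was Dab1, Calb2, Nhlh2, Ebf1, Ebf2, Vldlr, Trp73, Reln, Nhlh1 and Ebf3. The values of the 2 libraries did not overlap between Dab1 and Calb2, between Ebf2 and Vldlr, between Vldlr and Trp73, or between Nhlh1 and Ebf3, and overlapped between all other neighbours. The deposited bounds were apart in both libraries between Dab1 and Calb2 and between Nhlh1 and Ebf3, but not between Ebf2 and Vldlr or between Vldlr and Trp73. In replicate 2 the posterior mean TPM was 5.15 for Ebf2 and 5.59 for Vldlr, the other way round. In tissue samples such as these, fewer cells of a type and less RNA per cell cannot be told apart.

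**Figure D1:**
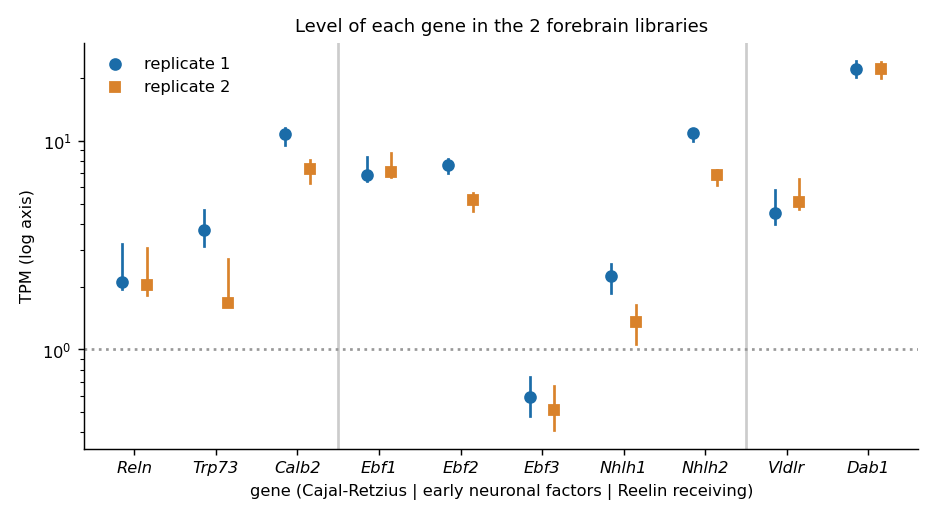
TPM on a log axis for each of the 10 genes. Circles are replicate 1, squares replicate 2, vertical lines the deposited bounds around the posterior mean, and the dotted line marks 1 TPM. Dab1 stood highest, at 22.2 and 22.1 TPM, and Ebf3 lowest, under 1 TPM in both libraries.

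Reelin itself had the lowest mean level of the 3 Cajal-Retzius genes. Reln, on chromosome 5 at 21884454 to 22344702 (minus strand, GRCm38, as for all gene positions here), had 2.10 TPM in replicate 1 and 2.03 TPM in replicate 2, a mean of 2.07 ± 0.049 TPM (SD, n = 2). Its expected counts were 318.79 and 247, and its mean level ranked at percentile 9.65 of the detected genes.

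Trp73, on chromosome 4 at 154056253 to 154140208 (minus strand), had 3.76 TPM in replicate 1 and 1.67 TPM in replicate 2, a mean of 2.72 ± 1.48 TPM (SD, n = 2). Its expected counts were 405.77 and 192. Replicate 1 was the higher library and the deposited bounds of the 2 libraries, 3.13 to 4.67 and 1.66 to 2.72 TPM, did not overlap. Trp73 stood at 1.79 times the Reln level in replicate 1 and at 0.823 times in replicate 2. The bounds of Reln, 1.96 to 3.19 and 1.83 to 3.06 TPM, overlapped those of Trp73 in both libraries, so the 2 genes could not be ranked. With coding transcripts alone, Trp73 was above Reln in both libraries, by 2.21 and 1.34 on the log2 scale.

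Calb2, on chromosome 8 at 110137502 to 110168210 (minus strand), encodes calretinin, a calcium-binding protein used as a marker of Cajal-Retzius cells and of other neurons. It had 10.8 TPM in replicate 1 and 7.35 TPM in replicate 2, a mean of 9.05 ± 2.40 TPM (SD, n = 2), from 396 and 244 counts. Its level was 5.12 and 3.62 times that of Reln in the 2 libraries, so its excess over Reln was seen in both.

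Of the early neuronal factors, the Nhlh genes stood in a close proportion in the 2 libraries, and Ebf1 and Ebf2 did not. Nhlh2, on chromosome 3 at 102010076 to 102015492 (plus strand), had 10.9 TPM in replicate 1 and 6.86 TPM in replicate 2, a mean of 8.87 ± 2.84 TPM (SD, n = 2). Nhlh1, on chromosome 1 at 172052292 to 172057573 (minus strand), had 2.25 TPM in replicate 1 and 1.36 TPM in replicate 2, a mean of 1.81 ± 0.629 TPM (SD, n = 2). Both were higher in replicate 1. Nhlh2 was 4.83 times Nhlh1 in replicate 1 and 5.04 times in replicate 2, a log2 difference in level of 2.30 ± 0.04 (SD, n = 2), and held 82.9% and 83.5% of the TPM of the pair. Nhlh1 rested on 147 and 80 counts, with bounds of 1.87 to 2.58 and 1.06 to 1.64 TPM. The SD of 2 pools therefore does not show that the proportion is steady.

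Ebf1, on chromosome 11 at 44617317 to 45008091 (plus strand), had 6.86 TPM in replicate 1 and 7.11 TPM in replicate 2, a mean of 6.99 ± 0.177 TPM (SD, n = 2). Ebf2, on chromosome 14 at 67233292 to 67430918 (plus strand), had 7.71 TPM in replicate 1 and 5.21 TPM in replicate 2, a mean of 6.46 ± 1.77 TPM (SD, n = 2). Ebf1 was thus at 0.890 times Ebf2 in replicate 1 and at 1.36 times in replicate 2, and the 2 genes could not be ranked. Ebf3, on chromosome 7 at 137193673 to 137314445 (minus strand), had 0.59 TPM in replicate 1 and 0.51 TPM in replicate 2, from 79 and 62 counts. Ebf2 was 13.1 and 10.2 times as high as Ebf3. The family's other gene, Ebf4, had 0.67 and 0.68 TPM, so Ebf3 and Ebf4 each held between 3.73% and 5.03% of a family sum of 15.8 TPM in replicate 1 and 13.5 TPM in replicate 2.

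Both genes of receiving cells were present. Dab1, on chromosome 4 at 103619359 to 104744844 (plus strand), had 22.2 TPM in replicate 1 and 22.1 TPM in replicate 2, a mean of 22.1 ± 0.071 TPM (SD, n = 2). Vldlr, on chromosome 19 at 27216484 to 27254231 (plus strand), had 4.53 TPM in replicate 1 and 5.09 TPM in replicate 2, a mean of 4.81 ± 0.396 TPM (SD, n = 2). The adaptor was therefore above its receptor in both libraries, at 4.89 and 4.33 times. Lrp8, the other Reelin receptor, had 9.45 and 9.61 TPM, and Vldlr stood at 0.479 and 0.530 times its level. Dab1 was 10.6 and 10.9 times as high as Reln.

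By group medians, the receiving genes were above the Cajal-Retzius genes, although Vldlr was below Calb2 in both libraries. The difference of the medians of log2(TPM + 0.1) was 1.40 in replicate 1 and 2.33 in replicate 2, a mean of 1.86 ± 0.66 (SD, n = 2). By medians, the early neuronal factors were above the Cajal-Retzius genes by 0.85 and 1.32 on the same scale, a mean of 1.08 ± 0.33 (SD, n = 2). This second difference rested on the use of medians: with means over the genes it was -0.19 and -0.03, the other way. With 2 libraries the smallest p that an exact two-sided sign-flip test can give is 0.5, so neither difference was tested.

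The genes of the pathway beyond the members were all present. Of 23 other Reelin signalling genes, 23 were detected, with a summed level of 869.9 and 885.3 TPM. The highest were Rnf7, a ring finger subunit of the ubiquitin ligases that act on phosphorylated Dab1, at 230.9 ± 3.90 TPM, and Crk, an adaptor that binds phosphorylated Dab1, at 106.9 ± 5.69 TPM. Itgb1, an integrin subunit, followed at 93.2 ± 4.65 TPM and Gsk3b, a kinase that phosphorylates tau, at 55.3 ± 1.20 TPM (SD, n = 2 each). These genes are used by many cell types, and their levels do not mark cells that respond to Reelin.

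Of 6 other genes associated with Cajal-Retzius cells, 5 were detected. Lhx5, a LIM homeodomain factor also made by progenitors, led at 21.6 and 18.7 TPM, and Cxcr4, the chemokine receptor that keeps Cajal-Retzius cells near the meninges, had 6.66 and 5.64 TPM. Ndnf, a secreted neuronal protein, had 3.39 and 4.96 TPM, and Tbr1, a T-box factor of early glutamatergic neurons, had 4.27 and 2.02 TPM. Cacna2d2, a calcium channel subunit named after its values were seen, missed the detection level with 1.00 and 0.89 TPM.

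Of 11 genes of the regions that give rise to Cajal-Retzius cells, 9 were detected. The secreted Wnt regulator Sfrp2 had 103 and 113 TPM, Wnt8b 39.5 and 32.4 TPM, Rspo2 26.7 and 23.8 TPM and Bmp4 19.2 and 21.9 TPM. The Wnt ligand Wnt2b, at 0.55 and 0.50 TPM, and Gdf7, a roof plate ligand, at 0.06 and 0.09 TPM, were under the detection level.

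Of the 10 genes, 8 were higher in replicate 1, against 49.3% of 13842 annotated genes that averaged at least 50 counts. Ratios are replicate 1 over replicate 2 of expected counts scaled by library size, with a 95% exact binomial interval that covers counting error only. The interval lay above 1 for 6 of the 10 genes against 17.0% of the 13842 genes. It lay below 1 for 1 gene, where it did for 17.4% of the genes. Of the 10, 0 were over 2-fold apart, against 0.585% of the genes in either direction and 0.347% with replicate 1 higher. The median log2 ratio was 0.37 over the 10 genes and -0.0020 over all 13842.

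Trp73 had the highest ratio of the 10, 1.92 (95% interval 1.62 to 2.30). It was followed by Nhlh1 at 1.67 (1.26 to 2.22), Nhlh2 at 1.60 (1.44 to 1.78), Calb2 at 1.48 (1.26 to 1.74) and Ebf2 at 1.42 (1.28 to 1.58). These 5 were also the genes whose deposited TPM bounds did not overlap between libraries, all with replicate 1 higher, where 5.25% of the genes did so in that direction and 8.21% in the other.

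Reln, Ebf1 and Ebf3 were not separated by counting error. Their ratios were 1.17 (0.992 to 1.39), 0.963 (0.864 to 1.07) and 1.16 (0.821 to 1.64). Dab1 had a ratio of 1.12 (1.04 to 1.21), which lost its direction when the libraries were scaled by spike-in counts, with a log2 ratio of -0.0045 instead of 0.16. That scaling moved the median log2 ratio of all 13842 genes to -0.17. Vldlr was the gene whose interval lay below 1, at 0.866 (0.764 to 0.982).

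**Figure D2:**
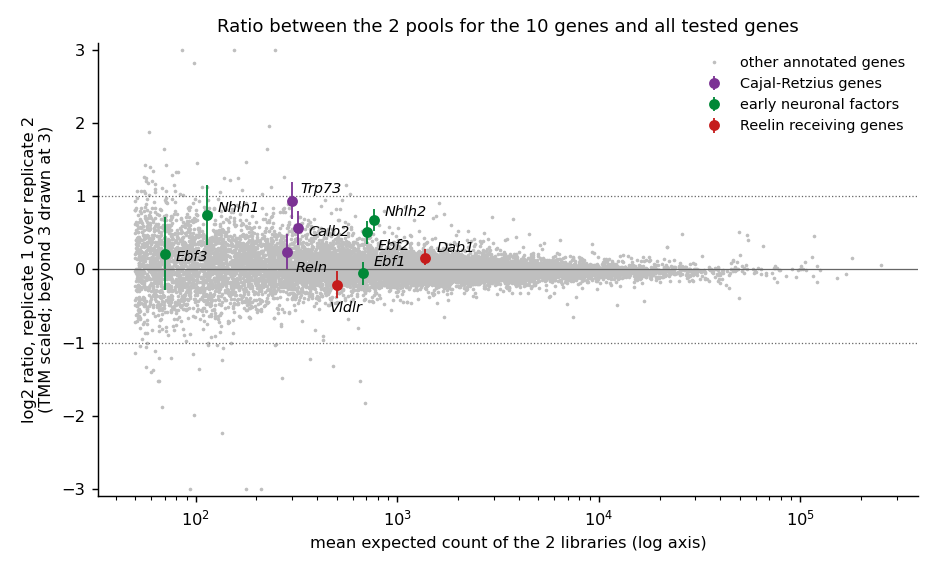
Log2 ratio of replicate 1 over replicate 2 against the mean expected count (log axis), with grey points for the other tested genes and coloured points for the 10 genes, and 95% counting intervals as bars. Trp73, Nhlh1, Nhlh2, Calb2 and Ebf2 lie above 0 by 0.51 to 0.94, and dotted lines mark a 2-fold difference.

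The same direction was seen over a list of early neuron genes. All 20 had a ratio above 1, against 49.3% of the 13842 genes. The interval lay above 1 for 18 of 20, against 17.0% of the genes, and the list's median log2 ratio was 0.38. The list was chosen with earlier results of these data known, so it gives no independent support for the direction. Tubb3, the neuronal tubulin, had 221 and 175 TPM, Map2, a dendritic microtubule protein, 62.1 and 50.7 TPM, Stmn3, a microtubule regulator, 64.4 and 48.1 TPM, and Elavl4, a neuronal RNA-binding protein, 49.6 and 40.0 TPM. Of the 20, 18 were detected, and Myt1l and Onecut2 were under 1 TPM in both libraries.

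Some genes near the members in function moved with them and some did not. Of the 6 other Cajal-Retzius genes, the interval lay above 1 for 3 and below 1 for 1, with a median log2 ratio of 0.33. Lhx5 had a ratio of 1.16 (1.08 to 1.26) and Tbr1 of 1.97 (1.66 to 2.37), whereas Ndnf had 0.810 (0.696 to 0.942). Of the 23 other Reelin pathway genes, the interval lay above 1 for 3 and below 1 for 2, and the median was 0.05. The 3 were Rapgef1, Cdk5r1 and Mapt, named after their values were seen. Mapt, which encodes the neuronal microtubule protein tau, was over 2-fold apart, at 6.78 and 2.45 TPM.

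Source region, proneural and progenitor genes held ratios in both directions. Of 9 source region genes with enough counts, the interval lay above 1 for 5 and below 1 for 2, with a median of 0.15. Of 9 proneural genes it lay above 1 for 4 and below 1 for 2, with a median of 0.20. Of 10 progenitor genes it lay above 1 for 4 and below 1 for 1, with a median of 0.03. The highest progenitor genes were Vim, an intermediate filament, at 768 and 762 TPM, Hes5, a Notch target, at 249 and 232 TPM, Fabp7, a fatty acid binding protein of radial glia, at 194 and 120 TPM, and Nes, another intermediate filament, at 73.4 and 69.2 TPM. Fabp7 had a ratio of 1.64 (1.55 to 1.73), within the range of the member genes.

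Other cell types the dissection could hold were read from their markers. Erythroid genes moved with the members: for 7 of 7 the interval lay above 1, with a median of 0.41, and their summed level was 17383 TPM in replicate 1 and 12874 TPM in replicate 2. Placode and ganglion genes, markers of neurons outside the brain that also use Ebf and Nhlh factors, summed to 27.1 and 26.4 TPM, and 4 of 11 were detected. Isl1, a LIM homeodomain factor of many early neurons, had 8.10 and 8.15 TPM. Tlx3 had 0 counts in both libraries, which is under the limit of 3 counts, and Gnrh1, the hormone gene of neurons that migrate in from the nose, had 3 and 2 counts.

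Mesenchyme genes, all 11 detected, summed to 576 and 580 TPM, with a median log2 ratio of 0.01. Endothelium and pericyte genes, 7 of 8 detected, summed to 171 and 180 TPM, with a median of -0.07. Of 5 genes listed for the midbrain 2 were detected, Pax3 at 11.0 and 10.4 TPM and Pax7 at 2 and 1.89 TPM. The others were Pax8 at 0.47 and 0.37 TPM, En1 at 0.09 and 0.08 TPM and En2 at 0 and 0.01 TPM. Which cells held Pax3 and Pax7 cannot be told from tissue samples, so their detection does not show midbrain tissue. B-lymphoid genes, a check because Ebf1 is also a B-cell factor, were detected in 0 of 7 and summed to 2.11 and 2.85 TPM. The part of any of these lists in the ratios of the member genes was not tested.

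**Figure D3:**
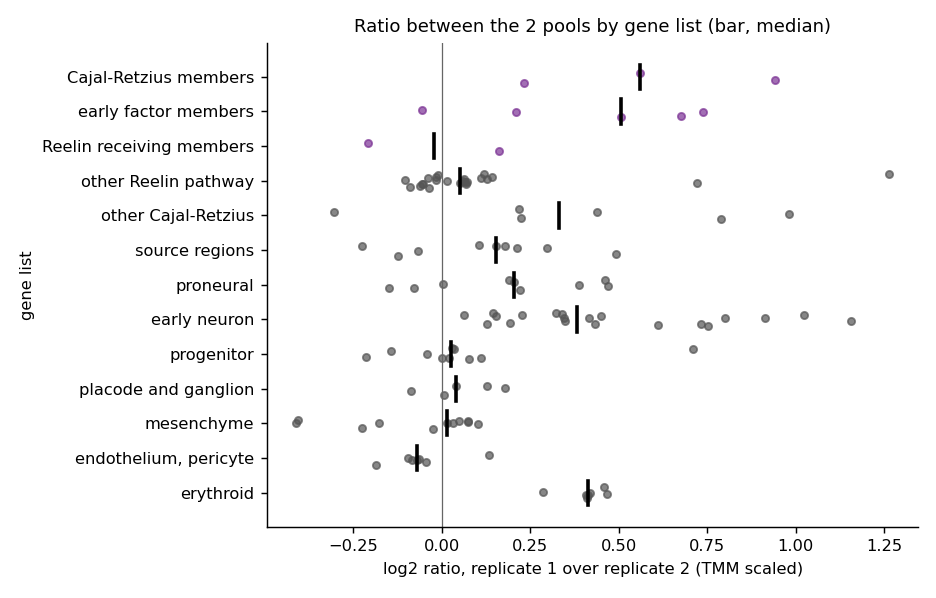
Log2 ratio of replicate 1 over replicate 2 for genes averaging at least 50 counts in 13 lists, with a point per gene and a black bar for the median. Early neuron genes centre on 0.38 and erythroid genes on 0.41, and the medians of mesenchyme and progenitor genes are 0.01 and 0.03, with single genes on both sides of 0.

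Trp73 counts were assigned to its starts in different proportions in the 2 libraries, with a wide error. Transcripts of the inner start (4 transcripts, 5′ ends at 154097167 to 154097173 of chromosome 4) held 340.67 of 405.77 counts in replicate 1 and 100.41 of 192 counts in replicate 2. That is 84.0% and 52.3% of the gene's counts, and 70.5% and 55.7% of its TPM. Of these counts 340.67 and 94.87 were assigned to Trp73-205, which lacks the first exons of the outer start and had 2.65 TPM in replicate 1 and 0.82 TPM in replicate 2. Its deposited bounds, 1.63 to 2.97 and 0.322 to 1.28 TPM, did not overlap, but the gene as a whole was also higher in replicate 1, so this does not show a different share of the starts.

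The outer start, at 154140208, was represented by Trp73-204, with 54.96 counts in replicate 1 and 91.59 counts in replicate 2. The deposited posterior standard deviations of these counts were 43.57 and 26.4, and its bounds, 0.0226 to 1.23 and 0.205 to 1.10 TPM, overlapped. Reads in exons that both forms share are divided between them by estimation, and a difference between the libraries in the share of the starts was not tested. A start between them, at 154116605, belongs to Trp73-206, with 0.71 TPM in replicate 1 and 0 TPM in replicate 2, from 10.14 and 0 counts. The exons of Trp73 share 280 bases with Trp73os on the opposite strand, which had 7.23 and 0 counts. The sources used here do not say whether counting used strand, and reads of the 2 genes may not be told apart there.

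Ebf2, Dab1 and Vldlr had more than 1 leading transcript. Of the 53 annotated transcripts of the 10 genes, 18 averaged at least 50 counts. The deposited bounds of 7 lay higher in replicate 1, where 3.43% of 27883 transcripts did, and those of 1 lay higher in replicate 2, where 4.69% did. The 7 were Trp73-205, Calb2-201, Ebf2-202, Ebf2-203, Nhlh1-201, Nhlh2-201 and Dab1-203.

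The Dab1 TPM of the gene was close in the 2 libraries, whereas 2 of its transcripts differed. Dab1-203, a coding transcript of 5278 bases, had 6.76 TPM in replicate 1 and 4.26 TPM in replicate 2, with bounds of 6.01 to 7.23 and 3.68 to 4.72. Dab1-207, annotated for nonsense-mediated decay, had 5.14 TPM in replicate 1 and 8.12 TPM in replicate 2, with bounds of 3.78 to 6.20 and 6.64 to 9.01. The 2 transcripts thus lay apart in opposite directions. Coding transcripts held 75.7% of the Dab1 TPM in replicate 1 and 62.9% in replicate 2.

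Vldlr showed a like division, with 61.7% of its TPM in coding transcripts in replicate 1 and 49.8% in replicate 2. Its transcript for nonsense-mediated decay, Vldlr-201, held 33.4% and 45.9%, and the bounds of every Vldlr transcript that averaged at least 50 counts overlapped between libraries. In Ebf2, the transcript from a start further downstream, Ebf2-202, had 3.04 and 1.53 TPM, with bounds of 2.27 to 3.66 and 0.920 to 2.10. Ebf2-203 had 4.24 and 3.03 TPM.

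**Figure D4:**
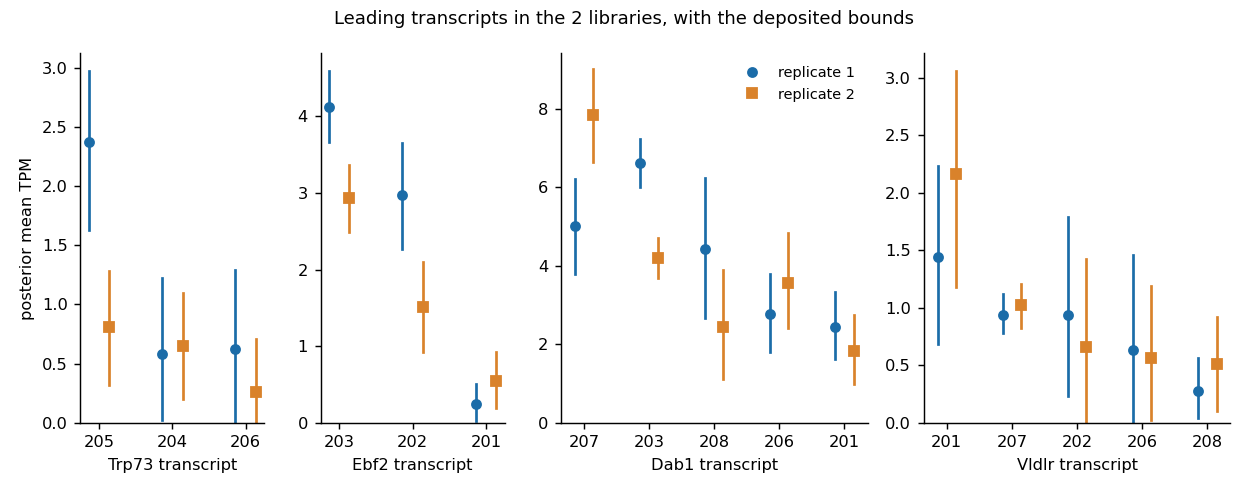
Posterior mean TPM of the leading transcripts of Trp73, Ebf2, Dab1 and Vldlr, with circles for replicate 1, squares for replicate 2 and lines for the deposited bounds. The bounds of Trp73-205 lie apart with replicate 1 higher, and Dab1-203 and Dab1-207 lie apart in opposite directions.

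The level of Reln depended on short transcripts. Coding transcripts held 80.9% of its counts in replicate 1 and 77.3% in replicate 2, but 38.6% and 32.7% of its TPM, or 0.81 and 0.66 TPM. The long coding transcript Reln-207, of 11699 bases, had 243.53 and 184.4 counts and 0.76 and 0.64 TPM. Reln-205, a transcript of 891 bases with no coding annotation, had 14.53 and 13.85 counts but 31.5% and 34.6% of the TPM, since TPM divides by length. With coding transcripts alone, Dab1 stood above Reln by 4.38 ± 0.01 on the log2 scale, against 3.42 ± 0.03 with all transcripts (SD, n = 2 each). The difference was 3.15 with posterior mean TPM and 2.29 with counts scaled to library size (CPM), which are not adjusted for length. The level of Dab1 depended on short coding transcripts too. Dab1-206, of 974 bases, had 2.8 and 3.63 TPM from 67.9 and 79.24 counts. Dab1-208, of 641 bases, had 4.44 and 2.38 TPM from 66.65 and 32.19 counts. The long coding transcript Dab1-203, of 5278 bases, had 6.76 and 4.26 TPM from 968.5 and 550.61 counts.

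Overlap with other genes touched few bases of the members. Of all stretches of 100 bases in their transcripts, none of those of Calb2, Ebf1, Nhlh1, Nhlh2, Vldlr and Dab1 was found in a transcript of another gene. The share was 0.223% for Reln, 3.18% for Trp73, 3.38% for Ebf2 and 0.968% for Ebf3. In Ebf2 the overlap was with Gm10860, an opposite-strand gene with 0 counts in both libraries, and in Reln 246 bases overlapped Gm10475, with 4.21 and 10 counts.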

How the data were processed

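Total RNA was sequenced from 2 forebrain pools of a single group. Per the labels, RNA was extracted by the mirVana method and spike-ins were added. The deposited notes give assembly mm10 and annotation M4; not given in the sources used here: aligner, quantifier, versions and strand setting. Each library has 1 gene table and 1 transcript table.

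The expected counts deposited by the authors are unnormalized estimates for each gene and transcript, per the file headers. The deposited TPM values are adjusted for length over all 69691 rows, spike-ins included; bounds and posterior mean TPM were deposited beside them. Percent values deposited by the authors are each transcript's part of its gene's TPM. Annotated rows held 41537304 counts in replicate 1 and 38012457 in replicate 2, and spike-ins 7.83% and 7.01% of TPM.

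Gene and transcript names and coordinates, 1-based, came from GENCODE M21 on GRCm38; all 53 member transcripts matched. Detection was set at 1 TPM in both libraries. Levels were compared as log2(TPM + 0.1), with no test. TMM factors (1.003 and 0.997, edgeR 4.0.16 in R 4.3.3, 16637 genes reaching 10 counts in both libraries) scaled the libraries, and 0.5 was added to each expected count for the ratios. Intervals are 95% Clopper-Pearson intervals of the rounded counts and cover counting error only, since reads without molecular identifiers are not independent molecules. DESeq2 1.42.0 size factors, total annotated counts and spike-in counts were alternatives. The rest used scipy 1.17.1, pandas 2.3.3 and matplotlib 3.10.9 under Python 3.11.15. The ratio calculation was run on simulated counts with counting error only, which hold no spread between pools.

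The members and lists were chosen with earlier results of these data known. Named genes were the 10 members, up to 4 genes of highest mean TPM and up to 3 under 1 TPM in both libraries of each other list, and Lrp8, Ebf4, Gnrh1 and Lhx5; some genes that this rule names are left out of the text. Genes named outside this rule, the gene pairs and the coding-only levels were chosen after values were seen. With 2 libraries of 1 group no gene was named for likeness of pattern.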

Additional observations from a re-analysis of the deposited data

How the results depend on the processing

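Of the comparisons of member groups and the counts of members, 1 result changed direction: the early neuronal factors minus the Cajal-Retzius genes, 1.08 on the log2 scale with medians, was -0.11 with means over the genes. The mean of that difference lay between 0.85 and 1.32 under pseudocounts of 1 and 0.01, CPM, posterior mean TPM or coding transcripts alone. The single replicates of the main setting were the ends of that range. With coding transcripts alone the libraries were further apart, at 0.43 in replicate 1 and 1.55 in replicate 2. The receiving genes stayed above the Cajal-Retzius genes under the same alternatives, with means and main single replicates between 1.32 and 2.33. With coding transcripts alone that difference was 0.86 in replicate 1 and 1.78 in replicate 2. Detection counted 10 genes at 0.5 TPM and 7 at 2 TPM. The log2 ratio of Dab1, 0.16, was -0.0045 with spike-in counts. Under that scaling the 95% interval of the ratio lay above 1 for 5 members and below 1 for 2. It lay above 1 for 3.71% and below 1 for 61.1% of the 13842 genes. With DESeq2 size factors or total annotated counts, the interval lay above 1 for 6 members and below 1 for 1, as in the main scaling.

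Coding transcripts alone lowered Reln to 0.735 TPM, Ebf1 to 5.35, Vldlr to 2.66 and Dab1 to 15.3, and raised Trp73 over Reln to 1.78 on the log2 scale. The inner-start share of Trp73 averaged 63.1% ± 10.5 of TPM (SD, n = 2), 58.5% of posterior mean TPM and 68.1% of counts. No paired analysis was possible because there is only 1 group. With 2 pools the SD is imprecise, and counts of 79 and 62 for Ebf3 limit what could be detected there.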

Other observations

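Relatives of the member genes, from a list of 8, were detected for 6. Trp53, the best known relative of Trp73, had 163 and 166 TPM in replicates 1 and 2, and Trp63, the epithelial relative, had 7.11 and 6.50 TPM. Zfp423, a zinc finger protein that binds Ebf factors, had 21.3 and 21.1 TPM. Calb1, which encodes calbindin, had 0.85 TPM in replicate 1 and 2.24 TPM in replicate 2, with a count ratio of 0.595 (95% interval 0.450 to 0.780), where Calb2 had a ratio of 1.48. Calb1 was named after its values were seen.

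Among proneural genes, Hes6 led at 150 and 133 TPM, followed by Dll1 at 45.0 and 47.9 TPM and Neurog2 at 23.7 and 17.3 TPM. Neurod2, at 0.12 and 0.03 TPM, and Neurod6, at 0.18 and 0.02 TPM, genes of maturing cortical neurons, were under the detection level.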
